A study of Mus musculus with 64 samples.

Results

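The nuclear genes of oxidative phosphorylation were taken as every gene row whose symbol began with Nduf, Uqcr, Atp5, Cox4, Cox5, Cox6, Cox7 or Cox8, together with Sdha, Sdhb, Sdhc, Sdhd and Cycs. The rule used names only, and it gave 91 of 23338 genes in each of 64 mouse libraries. By known function these were 36 subunits of complex I, 4 of complex II, 8 of complex III, 18 of complex IV with Ndufa4 counted there, 15 of complex V, cytochrome c, and 9 genes that the prefixes take in without being subunits. The 9 were the complex I assembly factors Ndufaf1, Ndufaf2, Ndufaf3 and Ndufaf4, the supercomplex factor Cox7a2l, the relatives Atp5s, Atp5sl and Ndufa4l2, and Cox4nb, which encodes a subunit of the endoplasmic reticulum membrane complex. The members lay on 19 chromosomes, with Ndufa1, Ndufb11 and Cox7b on the X chromosome. Cytochrome c1 (Cyc1) falls outside the rule and is described with the neighbouring pathways.

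Oxidative phosphorylation makes ATP in the inner mitochondrial membrane. Complexes I (NADH dehydrogenase) and II (succinate dehydrogenase) pass electrons to ubiquinone, complex III hands them to cytochrome c, and complex IV (cytochrome c oxidase) reduces oxygen, while complexes I, III and IV pump protons that drive ATP synthase, complex V. Most subunits are encoded in the nucleus and a small core by mitochondrial DNA. The count tables held 0 rows of mitochondrially encoded genes, so only the nuclear part of each complex was measured. Several complex IV subunits exist as pairs of genes, a widely expressed form and a form known from heart, skeletal muscle, lung or testis, and the liver is known for a high content of mitochondria.

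All samples were labelled C57BL/6, for which the study's methods name the J substrain, and no label gave a transgene or a treatment. The groups were 12 single eight-cell embryos from natural matings (6 male, 6 female), 4 embryonic stem (ES) cell lines grown in 2i medium and established from embryos of that stage (2 male and 2 female), 24 livers of late-gestation fetuses (12 male, 12 female) and 24 livers of adults (12 male, 12 female). Embryo cDNA was amplified by PCR with a single-cell protocol, whereas the other libraries were made from total RNA with a stranded kit, so that stage and protocol cannot be told apart wherever embryos are compared with other stages. The study assigned the sex of embryos from their own reads and that of fetuses and ES lines by PCR. The study's methods say that the embryos came from several litters, so some share a litter, and nothing in the labels ties an embryo or a fetus to a litter or an ES line to a mother.

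Reads on genes ranged from 4659656 to 7725432 in embryos, 9857929 to 10386931 in ES lines, 5145371 to 8499603 in the livers of fetuses and 1567583 to 4757610 in those of adults, of which 7 held under 2000000. No pair of libraries was identical. The level that 3 reads can show lay between 0.289 and 1.91 CPM (counts per 1000000 reads on genes) before scaling, for counting error only. Labels were checked against marker genes: the summed level of 6 hepatocyte markers was 19864 to 26798 CPM in fetal and 41677 to 59505 CPM in adult livers against at most 2.44 CPM in ES lines and 60.6 CPM in embryos, and 5 pluripotency markers summed to 1723 to 1949 CPM in ES lines and 228 to 945 CPM in embryos against at most 3.46 CPM in livers. Erythroid markers summed to 3976 to 5930 CPM in fetal livers, 192 to 249 CPM in adult male livers and 18.4 to 56.1 CPM in adult female livers.

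Most members had reads at every stage. Of the 91, 82 had a read in every embryo, 86 in every ES line, 85 in every fetal liver and 82 in every adult liver, and 79, 82, 80 and 81 had a stage mean of at least 10 CPM. Ndufs5 had 0 reads in all 64 libraries, and whether its transcript was absent or its reads were not counted cannot be told from these counts. Levels are given as CPM scaled by trimmed-mean (TMM) factors over all libraries. The median of the members' stage means was 47.9 CPM in embryos, 62.3 CPM in ES lines, 67.8 CPM in fetal livers and 145.9 CPM in adult livers.

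As a share of all reads on genes, which does not depend on the scaling, the 91 genes took 1.09% ± 0.112 (SD, n = 12) in embryos, 1.25% ± 0.0145 (n = 4) in ES lines, 1.02% ± 0.0775 (n = 24) in fetal livers and 1.32% ± 0.0810 (n = 24) in adult livers. Adult libraries lay between 1.17% and 1.45% and fetal libraries between 0.851% and 1.18%, so the ends of these ranges overlapped. Within the fetal livers, males lay between 0.851% and 1.002% and females between 1.021% and 1.179%, with no overlap.

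**Figure D1:**
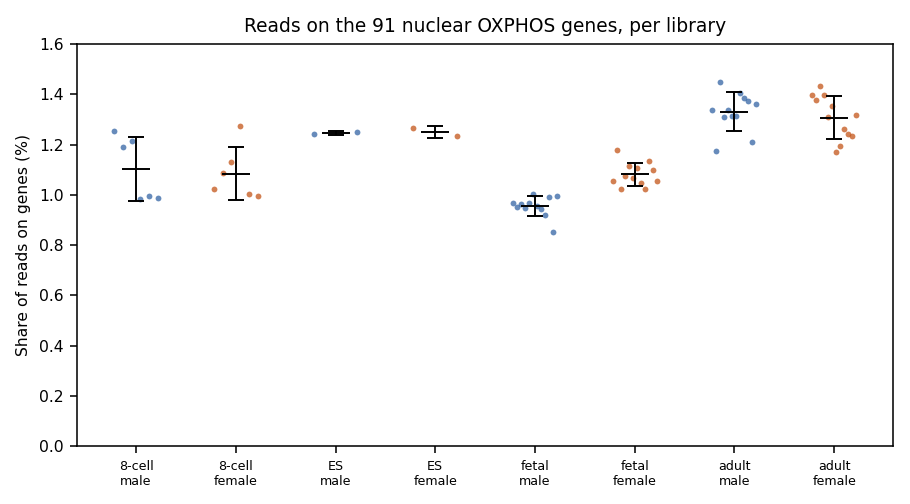
Share of reads on genes (%, vertical axis from 0) that fell on the 91 genes in each of the 64 libraries, by stage and sex (blue points male, orange points female; bars mean ± SD). Adult livers average 1.32%, fetal livers 1.02%, and fetal males sit below fetal females.

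The complexes did not keep the same proportions. Complex II, which also serves the tricarboxylic acid cycle, took 0.0299% of reads on genes in embryos, 0.0651% in ES lines, 0.0737% in fetal livers and 0.124% in adult livers. Complex V took 0.540%, 0.536%, 0.420% and 0.488% in the same order and was the largest class at each stage. Complex IV was at 0.113% in embryos and 0.139% in fetal livers but at 0.198% in ES lines and 0.196% in adult livers.

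Members were ranked on a scale of mean CPM per kilobase of transcript, which divides by transcript length but corrects no other bias of a protocol. Atp5b, the catalytic beta subunit of ATP synthase, ranked first among the members at all 4 stages. It was at 644, 692, 647 and 892 CPM per kb in embryos, ES lines, fetal and adult livers. The embryo ranks come from amplified cDNA, and the part of that protocol in them was not tested. The second rank changed. It was held by Atp5f1, a subunit of the peripheral stalk, in embryos (571 CPM per kb), by Atp5a1, the alpha subunit, in ES lines (431) and fetal livers (361), and by Ndufa4, a subunit of complex IV, in adult livers (673).

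Among the 84 members that reached a mean of 10 CPM at some stage, 67 had their highest mean in adult liver, 13 in embryos, 3 in ES lines and 1 in fetal liver. The lowest mean was in embryos for 46, fetal liver for 20, ES lines for 17 and adult liver for 1. These counts rest on TMM-scaled levels, where a larger factor lowers CPM. The factors were 0.747 to 0.867 in adult livers and 1.29 to 1.34 in ES lines. The same counts were not made on library totals alone or over all genes. The spread between libraries of a stage was small outside the embryos. The members' median coefficient of variation was 31.4% in embryos, 4.27% in ES lines, 6.89% in fetal livers and 11.99% in adult livers, beside 37.1%, 6.89%, 10.05% and 16.1% over all genes that averaged 10 CPM or more.

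**Figure D2:**
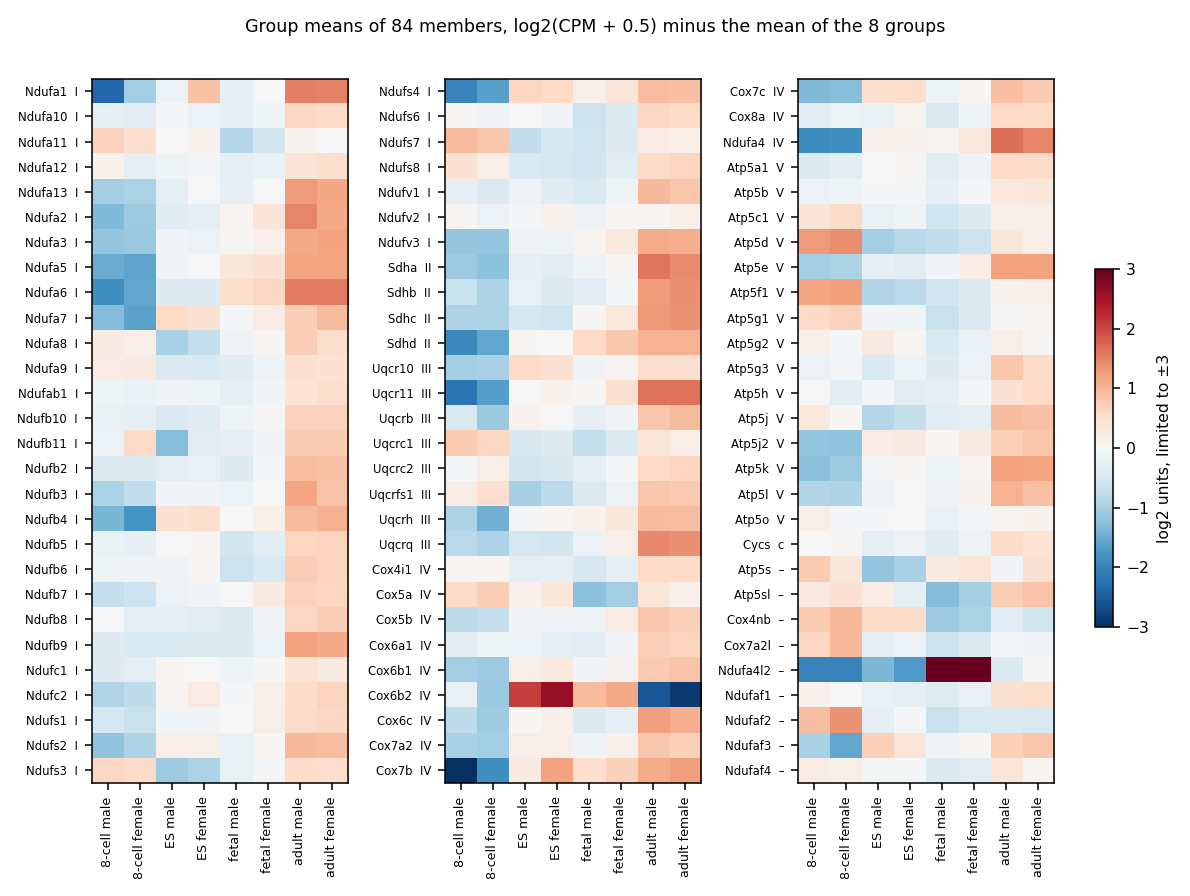
Mean level of 84 members in the 8 groups of stage and sex (columns), as log2(CPM + 0.5) minus the mean of the 8 groups (red higher, blue lower, colour limited to ±3 log2 units); letters beside symbols give the complex. Most rows are reddest in the adult livers, while Cox6b2 and Ndufa4l2 are not.

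The c ring of ATP synthase, the rotor through which protons pass, shows such a shift between genes of 1 product. Atp5g1, Atp5g2 and Atp5g3 encode the same mature c subunit behind different targeting peptides, and each has a promoter of its own. The promoter stretches of these genes and of Cox6b1, the widely expressed partner of Cox6b2, are printed here because the levels of these members moved differently over the stages. They are from RefSeq on GRCm38.p6, minus strand: Atp5g1 chr11:96075641-96075881, Atp5g2 chr15:102671098-102671297, Atp5g3 chr2:73911297-73911576 and Cox6b1 chr7:30626122-30626364. That of Atp5g3 ends 30 bases past the annotated start, whereas those of Cox6b1, Atp5g1 and Atp5g2 end 7, 9 and 50 bases before it, and capitals mark matches to the motifs described below.
Atp5g1: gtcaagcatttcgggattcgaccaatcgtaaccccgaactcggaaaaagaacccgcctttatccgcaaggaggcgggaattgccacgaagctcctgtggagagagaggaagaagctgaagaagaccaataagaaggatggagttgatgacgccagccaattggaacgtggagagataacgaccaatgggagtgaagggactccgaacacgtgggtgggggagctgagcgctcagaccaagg
Atp5g2: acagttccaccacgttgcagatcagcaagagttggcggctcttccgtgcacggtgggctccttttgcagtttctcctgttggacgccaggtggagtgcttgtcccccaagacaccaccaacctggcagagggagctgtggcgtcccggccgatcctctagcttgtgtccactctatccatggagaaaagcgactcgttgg
Atp5g3: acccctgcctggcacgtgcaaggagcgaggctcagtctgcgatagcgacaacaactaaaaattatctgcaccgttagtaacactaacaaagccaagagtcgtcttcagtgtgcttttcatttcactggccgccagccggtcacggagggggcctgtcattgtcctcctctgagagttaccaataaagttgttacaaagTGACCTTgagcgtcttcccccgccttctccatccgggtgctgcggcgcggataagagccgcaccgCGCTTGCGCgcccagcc
Cox6b1: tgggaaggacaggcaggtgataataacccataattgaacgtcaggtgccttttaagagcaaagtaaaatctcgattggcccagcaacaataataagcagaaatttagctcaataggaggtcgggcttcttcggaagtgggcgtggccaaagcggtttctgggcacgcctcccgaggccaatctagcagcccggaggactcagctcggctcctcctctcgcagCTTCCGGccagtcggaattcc

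Per transcript length, Atp5g1 made up 44.5% ± 4.74 (SD, n = 12) of the summed c subunit genes in embryos, 33.6% ± 2.92 (n = 4) in ES lines, 30.9% ± 1.58 (n = 24) in fetal livers and 28.2% ± 3.21 (n = 24) in adult livers. Atp5g3 went the other way, with 26.1% ± 5.30, 28.6% ± 3.81, 35.8% ± 1.19 and 44.0% ± 2.90. The Atp5g3 shares of fetal livers (33.7% to 38.0%) and adult livers (38.2% to 49.1%) did not overlap. Atp5g2 took 29.4%, 37.8%, 33.3% and 27.8%.

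Promoter windows of 300 bases (250 before and 50 after the start) were held for 75 of the 91 members. Motifs of transcription factors known to act on respiratory genes were searched on both strands. GCGCANGCG, the motif of NRF1, was in the windows of 22 members (29.3%) and of 7.03% of 27025 genes. CCGGAAG, of ETS factors such as GABPA, was in 22.7% of the members against 9.93%, AANATGGCG, of YY1, in 14.7% against 2.76%, and AAGGTCA, of ESRRA, in 10.7% against 5.38%. The NRF1 motif was in 7 of 14 complex V windows and 1 of 13 complex IV windows. Of the printed stretches, that of Atp5g3 held an ESRRA match at base 52 before the start and an NRF1 match just past it, that of Cox6b1 an ETS match at base 28 before the start, and those of Atp5g1 and Atp5g2 none. The window of Atp5g2 did hold an NRF1 match, in bases that are not printed, whereas that of Atp5g1 held no match to any of the 4 motifs. Members' windows were also rich in CpG, with a median of 20 CpG and 59.0% GC against 8 and 53.3% over all genes, and the part of base composition in the motif shares was not tested.

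The first comparison asked how the genes differ between fetal and adult liver, which were prepared with the same kit. The mapping differed, in that alignments that were not unique made up 32.7% to 61.1% of counted reads and such alignments together in adult livers and 23.2% to 28.5% in fetal livers, and the part of this in the result was not tested. In edgeR's quasi-likelihood test with sex as a covariate, a gene was called at a Benjamini-Hochberg adjusted p under 0.1 over all genes tested with an absolute log2 ratio above 0.5. Of 84 members tested, 73 were called higher in adult liver (28.9% of 13026 genes were), 2 lower (38.4% of all genes) and 9 were not called. The members' median log2 ratio was 0.81 and that of all genes -0.15. For 59 members the 24 fetal and 24 adult livers did not overlap. The same count was not made over all genes, of which 91.3% had an adjusted p under 0.1 in that test with no fold threshold. The size depended on the scaling: with library totals alone the members' median was 0.36 and that of all genes -0.61, and 31 members were higher and 3 lower. Of all 13026 genes, 2419 were then higher and 7022 lower. In these whole-tissue samples, more hepatocytes and more RNA per hepatocyte cannot be told apart. Hepatocyte markers were higher and erythroid markers lower in every adult liver than in every fetal liver, and their part in the result was not tested.

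Complex II held some of the largest rises. Sdha, the flavoprotein subunit that oxidises succinate, was between 243 and 318 CPM (median 260) in fetal livers and between 655 and 919 CPM (median 793) in adult livers. The groups did not overlap, and Sdha rose by a log2 ratio of 1.56 ± 0.041 (SE). Sdhb, its iron-sulphur partner, rose by 1.52 ± 0.052, from 72.1 to 115 CPM (median 88.3) to 177 to 345 CPM (median 259). Sdhc, a membrane anchor, rose by 1.15 ± 0.043, whereas the other anchor, Sdhd, had a log2 ratio of 0.34 ± 0.041, under the fold threshold.

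In complex I, 33 of 35 tested subunits rose, with a median log2 ratio of 0.91. These were 6 of the 7 core subunits, which carry the redox centres, and 27 of 28 accessory subunits. Ndufa1, an X-linked accessory subunit needed for assembly, was between 15.9 and 27.5 CPM (median 23.2) in fetal livers and between 57.1 and 88.1 CPM (median 73.9) in adult livers, a log2 ratio of 1.68 ± 0.053 and the largest of any subunit in this comparison. Ndufv1, the core subunit that binds NADH, rose by 1.22 ± 0.054. Its neighbour in the same module, Ndufv2, was at 107 ± 7.96 CPM and 117 ± 14.2 CPM (SD, n = 24 each), a log2 ratio of 0.12 ± 0.039 that was not called. The other exception was Ndufc1, at 0.41 ± 0.062.

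All 8 members of complex III rose (median 0.97), among them Uqcrq, a small ubiquinone-binding subunit, by 1.42 ± 0.056 and Uqcrfs1, the Rieske iron-sulphur protein, by 1.10 ± 0.040. Cycs rose by 0.75 ± 0.048. In complex IV 11 of 12 tested members rose and 1 fell. Cox6c, a small structural subunit, was between 62.5 and 94.0 CPM (median 78.6) in fetal and between 165 and 266 CPM (median 238) in adult livers, a log2 ratio of 1.53 ± 0.046. Ndufa4 rose by 1.36 ± 0.043, from 119 ± 11.1 CPM to 304 ± 31.2 CPM (SD, n = 24 each).

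Complex V had the lowest median of the 5 complexes, 0.71, with 12 of 15 members called higher. Atp5a1 rose by 0.81 ± 0.041, from 712 to 1039 CPM (median 896) to 1266 to 1811 CPM (median 1577). Atp5b, paired with it in the catalytic head, was at 1240 ± 112 CPM and 1708 ± 151 CPM (SD, n = 24 each), a log2 ratio of 0.47 ± 0.037 that stayed under the fold threshold. The remaining subunits that were not called were Atp5g2 (0.43 ± 0.052) and Atp5o (0.22 ± 0.034), the stalk subunit that confers oligomycin sensitivity.

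**Figure D3:**
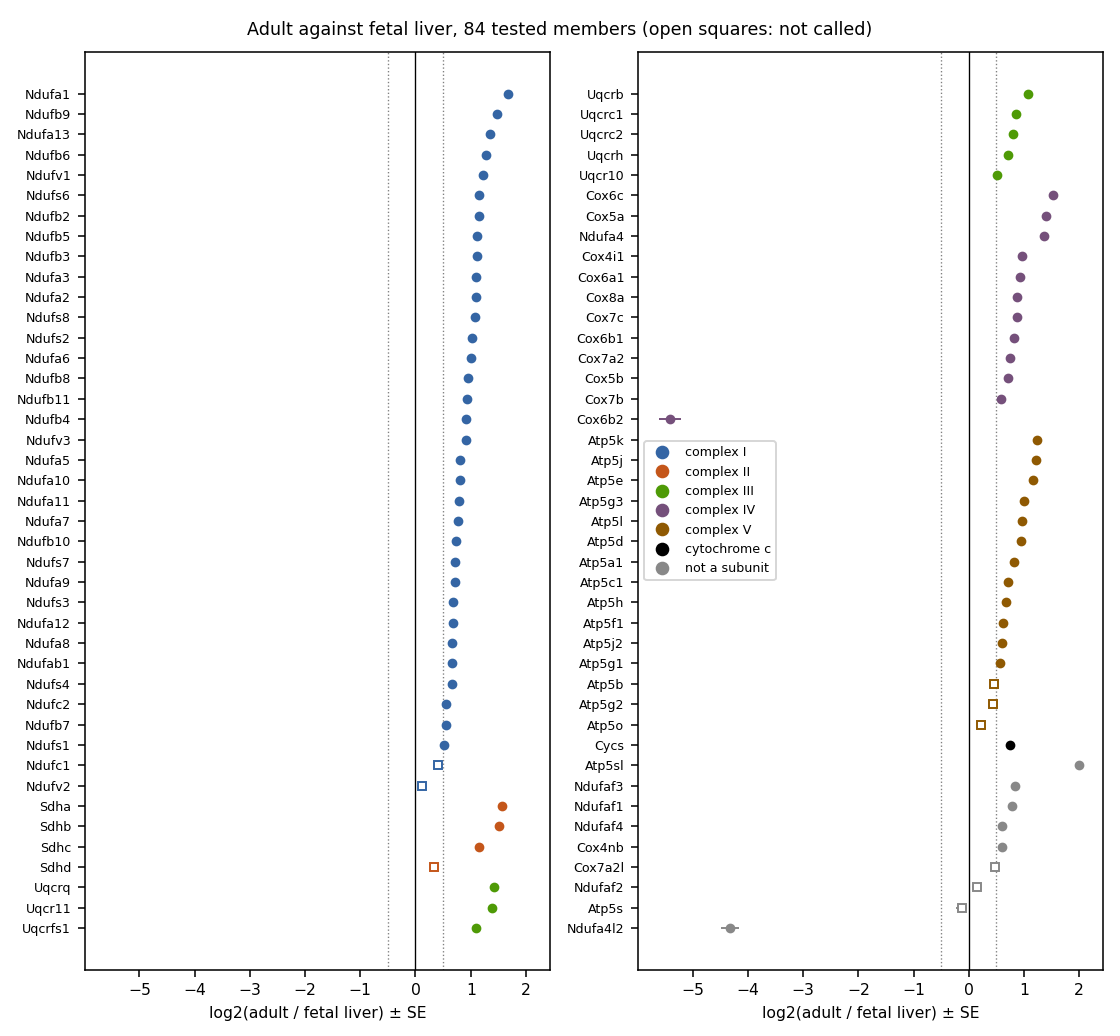
Log2 ratio of adult to fetal liver with its SE (horizontal axis) for the 84 tested members, coloured by complex; filled circles were called, open squares were not, and dotted lines mark the fold threshold of 0.5. Nearly all points lie to the right of 0.5, with Cox6b2 (-5.41) and Ndufa4l2 (-4.32) far to the left.

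The 2 members that fell were Cox6b2 and Ndufa4l2. Cox6b2, the partner of Cox6b1 known from testis, was between 6.91 and 12.5 CPM (median 9.50) in fetal livers, and in adult livers it had 10 reads in all, in 9 of 24 libraries, a log2 ratio of -5.41 ± 0.20. Ndufa4l2, a relative of Ndufa4 known to rise under low oxygen, was between 14.98 and 44.0 CPM (median 25.5) in fetal livers and between 0 and 3.22 CPM (median 1.17) in adult livers, a log2 ratio of -4.32 ± 0.17. Neither pair of groups overlapped. Ndufa4l2 is also known from pericytes and stellate cells, whose 6 markers summed to 58.6 to 307 CPM in fetal and 95.4 to 170 CPM in adult livers. Of these, Rgs5 (4.51 ± 0.25) and Lrat (1.35 ± 0.11) rose and Acta2 fell (-2.97 ± 0.26), from 30.4 to 3.90 CPM on average. Pdgfrb (-0.01 ± 0.091) and Des (-0.14 ± 0.21) were not called, and Cspg4, at 2.16 CPM in fetal and 0.120 CPM in adult livers on average, was not tested. The part of these cells in the Ndufa4l2 result was not tested. Among the other genes that are not subunits, Atp5sl had the largest rise of all members, 1.99 ± 0.063, from 10.6 to 41.9 CPM on average.

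Neighbouring pathways are given beside the same shares of all genes, 28.9% higher and 38.4% lower in adult liver. Cyc1 rose by a log2 ratio of 1.00 ± 0.049. Of 24 assembly factors with other names, 14 rose and 0 fell, including Sco2, a copper chaperone of complex IV (3.41 ± 0.10), and Surf1 (1.06 ± 0.050). Of 76 mitochondrial ribosomal proteins 28 rose and 1 fell (median 0.33), and of 13 tricarboxylic acid cycle enzymes 5 rose and 0 fell, with Suclg2 at 1.68 ± 0.042 and citrate synthase (Cs) not called at 0.20 ± 0.043. Of 12 regulators of mitochondrial gene expression, 4 rose and 4 fell: Esrra rose by 0.81 ± 0.12, whereas Nrf1 was at -1.54 ± 0.053 and Ppargc1a at -0.63 ± 0.13. Of 8 carriers and uncouplers tested, 1 rose (Slc25a5, an ADP/ATP carrier) and 3 fell, namely Ucp2 (-3.97 ± 0.091), Slc25a4 (-3.43 ± 0.065) and Atpif1, the inhibitor of ATP synthase (-3.18 ± 0.074).

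Fetal liver was next compared with ES cells, a pair of tissues prepared with the same kit. This comparison shares its fetal libraries with the one above. Of 85 members tested, 11 were higher in fetal liver (41.8% of 14858 genes) and 11 lower (34.2%), with a median log2 ratio of -0.05 beside 0.12 for all genes. With library totals alone 5 were higher and 25 lower, beside 5568 higher and 6045 lower of all 14858 genes. Of 15 complex V members 0 were called, of which 10 had an adjusted p under 0.1 but a log2 ratio within the fold threshold.

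The members higher in fetal liver were 5 of complex I, 2 of complex II, 2 of complex III and 2 that are not subunits. Ndufa4l2 was at 0.289, 0.291, 0.0769 and 0.157 CPM in the ES lines and at 14.98 CPM or more in every fetal liver, a log2 ratio of 6.88 ± 0.38. Ndufa6 (0.95 ± 0.062), Ndufs3, a core complex I subunit (0.88 ± 0.053), Sdhc (0.73 ± 0.065), Sdhd (0.68 ± 0.054) and Uqcrfs1 (0.60 ± 0.051) were also higher. The X-linked Ndufb11 was at 0.60 ± 0.089, but its ES lines differed by sex, with 35.5 and 36.6 CPM in the male and 73.7 and 66.1 CPM in the female lines beside 67.2 to 88.7 CPM in fetal livers. In male samples alone the ratio was 1.02, and in female samples alone it was 0.25, under the fold threshold, as it was without either male line (0.47 and 0.49). Sdhd was between 121 and 132 CPM in ES lines and between 176 and 245 CPM in fetal livers, without overlap.

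Complex IV supplied 4 of the 11 members lower in fetal liver. Cox5a, a subunit that binds a thyroid hormone metabolite, was at 146, 145, 167 and 168 CPM in the ES lines and between 51.2 and 74.99 CPM (median 58.7) in fetal livers, a log2 ratio of -1.39 ± 0.051. In adult livers Cox5a was back between 124 and 192 CPM. Cox7a1, the form known from heart and muscle, was at -2.37 ± 0.21 and Cox6b2 at -1.36 ± 0.10. Cox7c, a small membrane subunit, was at -0.54 ± 0.052. Outside complex IV, Cox4nb (-1.59 ± 0.061), Atp5sl (-1.19 ± 0.11) and Ndufa11 (-0.78 ± 0.074) were the lowest. The log2 ratio of Ndufa1 was -0.55 ± 0.10, but 0.01 with replicate number as a block, and the ES lines themselves differed by sex for this gene. Mitochondrial ribosomal proteins showed 2 higher and 36 lower of 76.

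ES cells and eight-cell embryos differ in protocol as well as in stage. Of 85 members tested, 33 were higher in ES lines (40.3% of 13511 genes) and 19 lower (24.3%), with a median of 0.18 beside 0.62 over all genes. Calls in both directions occurred within complexes I, III, IV and V. Complex IV had 9 higher and 1 lower of 14 and complex II 2 and 0 of 4, complex I had 13 and 7 of 35, complex III 4 and 3 of 8, and complex V 4 and 5 of 15.

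The largest difference in a widely used subunit was that of Cox7b, an X-linked complex IV subunit. It was between 4.06 and 34.8 CPM (median 16.8) in embryos and at 102, 129, 223 and 218 CPM in the ES lines, a log2 ratio of 3.34 ± 0.25 without overlap. Ndufs4, an accessory subunit of complex I (2.48 ± 0.46), Ndufa1 (2.13 ± 0.43), Uqcr11 (2.02 ± 0.32), Ndufa4 (2.00 ± 0.29), Sdhd (1.78 ± 0.26) and Atp5j2 (1.46 ± 0.23) were also higher. Ndufa4 was between 13.2 and 50.04 CPM (median 28.8) in embryos and at 110, 111, 112 and 111 CPM in the ES lines.

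The 19 members higher in embryos included Atp5f1 and Atp5d. Of the 7 core subunits of complex I, 2 were higher in ES lines and 3 in embryos, with a median log2 ratio of 0.09. Atp5f1 was between 747 and 1202 CPM (median 883) in embryos and at 198, 223, 226 and 226 CPM in the ES lines, a log2 ratio of -2.07 ± 0.14. Atp5d, the delta subunit of the central stalk, was between 174 and 434 CPM in embryos and between 51.2 and 60.2 CPM in ES lines, at -2.28 ± 0.22. The groups of both genes were separate. Ndufs3 (-1.61 ± 0.19), Uqcrfs1 (-1.26 ± 0.18) and Uqcrc1, a core protein of complex III (-1.14 ± 0.11), followed. Cyc1 was at -1.31 ± 0.17, and mitochondrial ribosomal proteins were higher in 6 and lower in 47 of 76.

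Transcript length moved with these ratios. The 37 members under 700 bases had a median log2 ratio of ES to embryo of 0.86, the 30 from 700 to under 1500 bases -0.18, and the 18 of 1500 bases or more 0.10, beside 0.89, -0.47 and 0.84 for all genes of those lengths. Spearman's rho of length with the ratio was -0.31 across the 85 members, which share libraries and protocol, and 0.22 across all genes. The part of the amplification protocol in the differences was not tested.

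The tissue forms of complex IV were low throughout. Cox6b2 and Cox7a1 had their highest mean level in ES lines and Cox4i2 in embryos, whereas Cox8b had its highest in adult livers. Cox6b2 made up 18.8% ± 3.39 (SD, n = 4) of Cox6b1 plus Cox6b2 per transcript length in ES lines, 9.61% ± 1.51 (n = 24) in fetal livers, 5.90% ± 4.66 (n = 12) in embryos and 0.143% ± 0.218 (n = 24) in adult livers. The ES lines had 15.1, 22.99, 26.1 and 30.2 CPM of Cox6b2, so every line was above every fetal liver. Embryos were spread between 0 and 6.21 CPM. Cox6b2 is known from testis. Markers of testis and germ line summed to 24.8 to 54.7 CPM in ES lines and 6.23 to 62.2 CPM in embryos. In fetal and adult livers they summed to at most 1.36 and 6.94 CPM. Of these markers, Tnp1 and Prm1 were at 0 CPM in the ES lines.

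Cox7a1 was at 7.51, 9.53, 8.23 and 6.44 CPM in the ES lines, against 2.39 ± 2.23 CPM (SD, n = 12) in embryos, 1.595 ± 0.710 CPM (n = 24) in fetal livers and 1.27 ± 0.778 CPM (n = 24) in adult livers. Its share of Cox7a1 plus Cox7a2 per length was 10.6%, 6.61%, 2.58% and 1.28% in that order. Cox4i2, the lung form known to respond to low oxygen, had 137 reads over the embryos, 2 over the ES lines, 42 over the fetal livers and 6 over the adult livers. Its summed rate in embryos was 44.5 times that in ES lines (exact 95% interval 12.1 to 371, which covers counting error only and neither the spread between embryos nor the difference in protocol). The embryos were uneven, with 0 to 47 reads each, and male embryo 6 held the 47. The muscle form Cox6a2 had 0, 1, 16 and 2 reads in the 4 stages and the testis form Cox7b2 9, 21, 1 and 1.

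Cox8b, known from muscle and brown fat, had 0, 0, 2 and 14 reads, of which 8 lay in adult female liver 13 (3.68 CPM). The same library held 11.03 CPM of Ucp1 and 5.06 CPM of Cidea, both known from brown fat, against 0 CPM of Ucp1 in the other 23 adult livers. The widely expressed partners were at 200.9 (Cox6b1), 165 (Cox7a2), 399 (Cox4i1), 200.6 (Cox6a1) and 169 CPM (Cox8a) in adult liver on average.

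**Figure D4:**
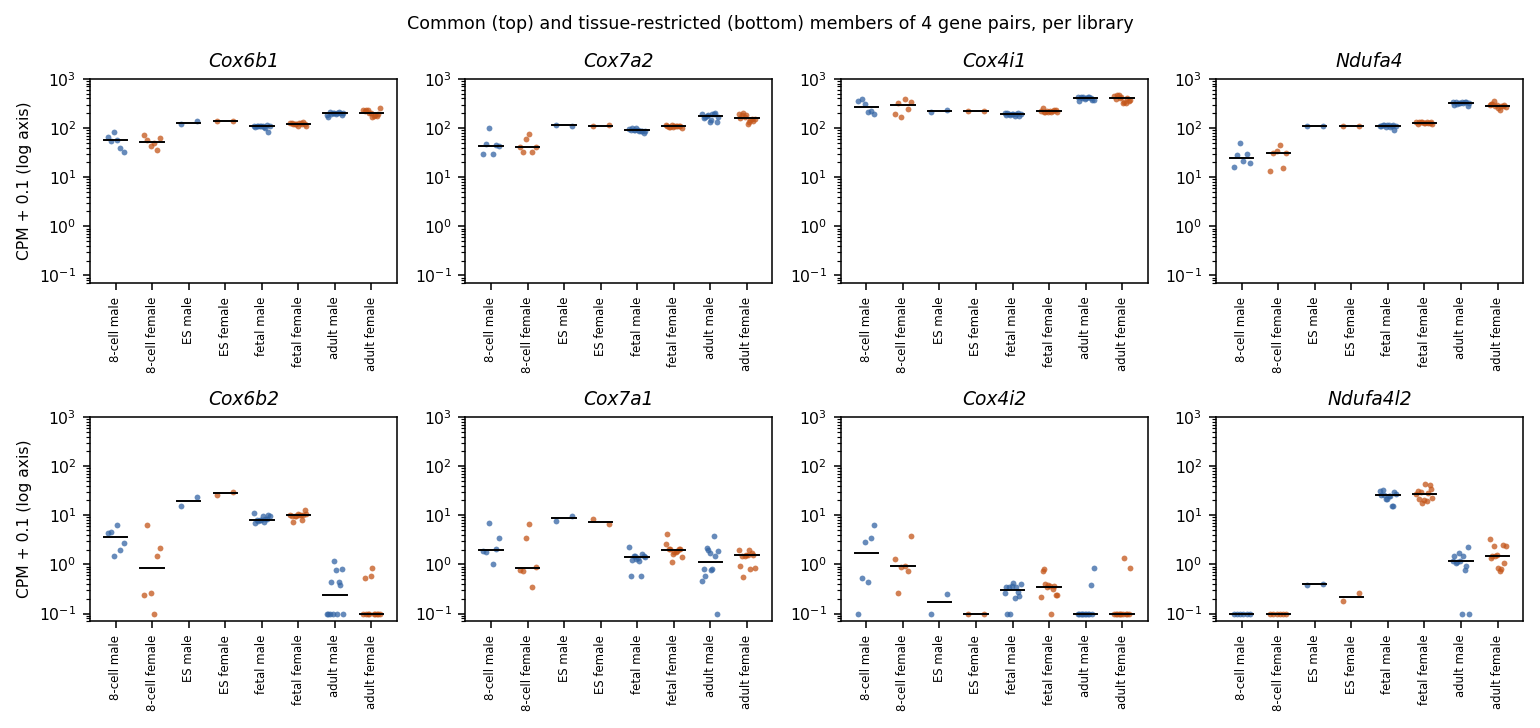
CPM + 0.1 on a log axis in each library for 4 widely expressed genes (top row) and their restricted relatives (bottom row), by stage and sex (blue male, orange female; lines mark medians). All 4 genes of the top row lie higher in adult than in fetal livers, Cox6b2 falls to the bottom in adult livers, and Ndufa4l2 is high in fetal livers alone.

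Sex differences were then examined within each stage, the question of the study. In embryos 0 of 84 members were called (0.264% of 9087 genes were). By edgeR's quasi-likelihood test, 2 members had an unadjusted p under 0.05, the X-linked Cox7b (p = 0.0046) and Ndufb11 (p = 0.013). Of all 9087 genes 347 did. DESeq2 called 1 member, Cox7b. The study, which used DESeq2, lists Cox7b among its sex-dimorphic genes of eight-cell embryos, higher in females. Cox7b was between 4.06 and 15.5 CPM (median 9.70) in male embryos and between 18.01 and 34.8 CPM (median 27.7) in female embryos, without overlap, at a log2 ratio of male to female of -1.43 ± 0.45. The sexes of embryos were assigned by the study from reads of the same libraries. Ndufb11 was between 38.3 and 142 CPM in males and 102 and 145 CPM in females.

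In ES lines 3 of 84 members were called (9.39% of 12678 genes), and these were the 3 X-linked members, all lower in male lines. Ndufa1 was at 23.8 and 20.8 CPM in the male and 48.1 and 45.8 CPM in the female lines, a log2 ratio of -1.07 ± 0.12. Ndufb11 was at 35.5 and 36.6 CPM against 73.7 and 66.1 CPM (-0.96 ± 0.11). Cox7b was at 102 and 129 CPM against 223 and 218 CPM (-0.93 ± 0.13). The sexes were separate for each of these genes, but with 2 lines of each sex they were separate for 44 of the 84 members tested. The same count was not made over all genes. Without either female line 0 members were called, but neither was any of the 13120 or 13108 genes then tested by edgeR (1318 and 1189 had an unadjusted p under 0.05). The log2 ratios without a female line were -1.04 and -1.11 for Ndufa1, -0.88 and -1.03 for Ndufb11 and -0.91 and -0.95 for Cox7b.

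In the livers the same 3 genes were close between the sexes. In adult livers the log2 ratios were 0.02 ± 0.077 for Ndufa1, -0.01 ± 0.075 for Ndufb11 and -0.14 ± 0.056 for Cox7b, and in fetal livers -0.27 ± 0.061, -0.18 ± 0.038 and -0.20 ± 0.037. A test of ES against liver for this difference was not run.

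**Figure D5:**
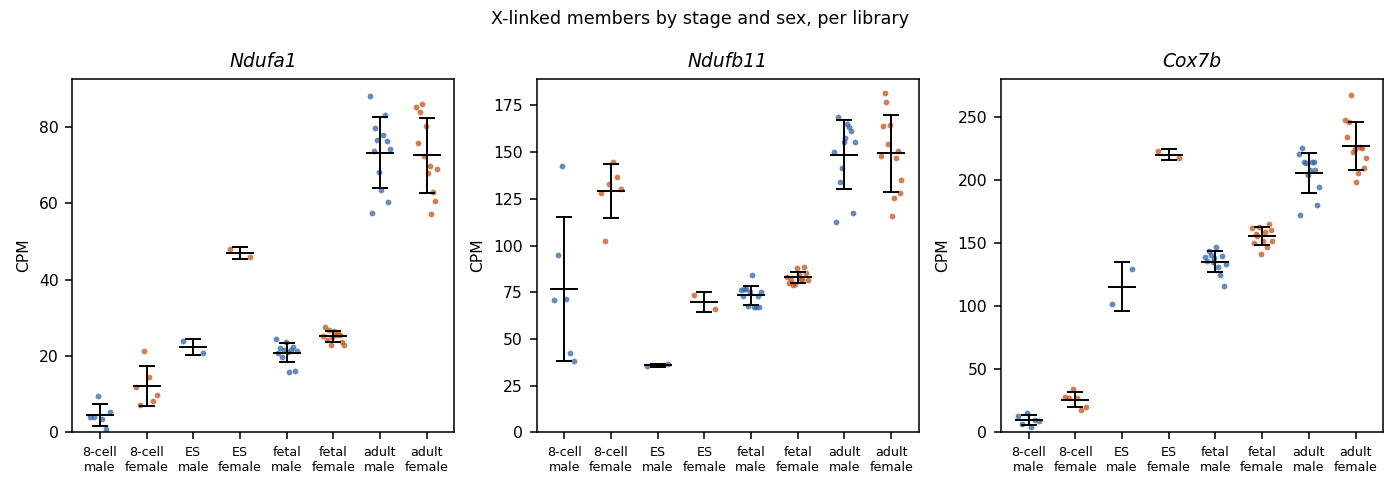
CPM (vertical axes from 0) of the X-linked members Ndufa1, Ndufb11 and Cox7b in each library by stage and sex (blue male, orange female; bars mean ± SD). Male and female points are separate in the ES lines for all 3 genes and in embryos for Cox7b, and they lie close together in adult livers.

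In fetal livers the members shared a small shift. Of 85 tested, all 85 had a lower mean in males, with a median log2 ratio of -0.21 beside -0.06 over all genes. With no fold threshold 77 members had an adjusted p under 0.1 by edgeR's quasi-likelihood test, each lower in males, where 28.3% of all genes were called lower in males. The male and female livers did not overlap for 17 members. That count was not made over all genes, of which 43.3% had an adjusted p under 0.1 in that test in either direction. Atp5a1 was between 712 and 892 CPM in males and between 900.3 and 1039 CPM in females (-0.24 ± 0.036). Uqcr11, a small complex III subunit, was between 47.8 and 68.6 CPM in males and between 70.5 and 90.3 CPM in females (-0.41 ± 0.050). A technical measure moved with sex: reads outside genes made up 39.9% to 49.0% in fetal males and 34.1% to 38.1% in fetal females, again without overlap. With that share as a covariate the median was -0.06 for the members and -0.06 over all genes. With the fold threshold 0 members were then called, beside 0.0696% of 12930 genes. Sex and this share cannot be told apart here.

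With the fold threshold 1 member, Cox7a1, was called in fetal livers (4.47% of 12930 genes). It was between 0.477 and 2.17 CPM (median 1.30) in males and between 0.996 and 4.04 CPM (median 1.84) in females, a log2 ratio of -0.68 ± 0.21 with overlap. The highest female value came from fetal liver 14, which also had the highest sum of stellate and pericyte markers (307 CPM). That liver also had the highest fetal levels of the muscle markers Ckm (4.67 CPM) and Myh7 (4.17 CPM). Male fetal liver 9, with the lowest Cox7a1 value, had the highest muscle marker sum of the fetal livers (44.7 CPM). The part of these cells in the Cox7a1 result was not tested.

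In adult livers 1 of 82 members was called (9.04% of 10372 genes): Atp5s, coupling factor B of ATP synthase, was between 1.35 and 8.60 CPM in males and between 4.42 and 15.2 CPM in females, at -0.56 ± 0.18. Without the 7 livers under 2000000 reads its log2 ratio was -0.49 and 0 were called. With no fold threshold 17 members had an adjusted p under 0.1 (31.5% of all genes), 13 higher and 4 lower in males. The erythroid marker sum was higher in every adult male liver than in every adult female liver.

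The sex difference itself was compared between adult and fetal liver with an interaction term. Of 84 members 2 were called (13.5% of 13026 genes), and with no fold threshold 58 were (33.2%), 57 of them with a more positive male to female ratio in adults. Ndufa2, an accessory subunit of complex I, averaged 99.0 CPM in adult males and 79.2 CPM in adult females but 37.3 and 47.0 CPM in fetal males and females, a difference of log2 ratios of 0.65 ± 0.11. Ndufb3, another accessory subunit, averaged 63.6 and 50.6 CPM in adults and 24.7 and 28.3 CPM in fetuses, a difference of 0.51 ± 0.12, only just past the fold threshold. It fell under the threshold with RLE scaling (0.48), DESeq2 (0.48), library totals alone (0.46), without the 7 livers under 2000000 reads (0.41) and without the 8 livers of lowest mapped share (0.40), and in 1 fit of all libraries it was 0.52 with an adjusted p of 0.18 by edgeR. The fetal side of both differences rests on the libraries whose share outside genes differs by sex. Alignments that were not unique differed by sex in both livers, at 42.2% to 61.1% in adult males, 32.7% to 43.2% in adult females, 23.2% to 26.1% in fetal males and 26.4% to 28.5% in fetal females, and their part in the adult and interaction results was not tested.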

How the data were processed

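RNA-seq libraries of 64 mouse samples were used, grouped by the stage and sex in their labels. The authors deposited raw read counts per gene: they aligned reads to mm10 with TopHat 2.0.4 and Bowtie2 2.1.0, used SAMtools 0.1.18, removed duplicates with Picard and counted with HTSeq. The strand setting and the HTSeq version are not given in the sources used here, and reads of overlapping or antisense genes may not be separable. Multi-mapped reads were not counted, so members with near-identical processed copies can be undercounted. Summary lines that name no gene were left out of library sizes and tests. Reads outside genes made up 8.63% to 14.4% of counted reads in embryos and 25.7% to 49.0% elsewhere.

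Counts were tested with edgeR 4.0.16 (R 4.3.3; robust glmQLFit, glmQLFTest, filterByExpr, TMM factors over all libraries), fitted on all genes with Benjamini-Hochberg adjustment. Calls needed an adjusted p under 0.1 and an absolute log2 ratio above 0.5. Stage fits had sex as a covariate. DESeq2 1.42.0, other scalings, filters, thresholds and sample sets were alternatives. The scripts were tested on simulated data. Fewer of the changes set there were recovered in the comparisons that involve embryos than in any other. False calls were most frequent between the sexes of ES lines. Levels are CPM on TMM-scaled library sizes. Lengths are of the shortest principal protein-coding transcript in GENCODE M21, a choice made after lengths from merged exons were seen.

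Members and lists were chosen with earlier results of these data known. Genes named were the isoform sets, core and X-linked subunits, the called members with the largest differences per complex and comparison, and members called between sexes. Others (Ndufv2, Ndufc1, Atp5o, Cox7c, Uqcr11 and the list genes) were named after their values were seen. Symbols were matched to RefSeq for all 91 members, 4 of them by synonym. Samples are taken as separate animals, embryos or lines, although embryos share litters that the labels do not give, and p-values measure the spread between them.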

Additional observations from a re-analysis of the deposited data

Results flagged for a closer look

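Among 116 pairs of a group and a member or share tested for a distant library, 11 had 1, where chance gives about 1 in 20 groups. All lay in the embryos, and groups of 12 livers or 2 ES lines were not tested. Male embryo 3 stood above the other 5 male embryos for Cox7a2 (102.3 CPM, next 47.8), Atp5g3 (374 CPM, next 153), Cox6c (121 CPM, next 56.1) and Ndufb3 (31.4 CPM, next 14.8). Male embryo 1 alone had reads of Cox7b2 and Cox8c, both known from testis, at 1.31 CPM each. Male embryo 5 was lowest for Uqcrfs1 (109 CPM, next 174). Among female embryos, embryo 10 was high for Atp5g1 (493.4 CPM, next 278) and Uqcrq (45.2 CPM, next 22.3), embryo 12 for Cox4i2 (3.70 CPM, next 1.21) and embryo 8 for Cox6b2 (6.09 CPM, next 2.09). The part of amplification in these values was not tested.

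The sex difference of 2 members differed between adult and fetal liver in the interaction test of edgeR: Ndufa2 by 0.65 and Ndufb3 by 0.51 on the log2 scale. That of Ndufb3 lost its call with RLE scaling, library totals alone, DESeq2, 1 fit of all libraries, and without either set of doubtful adult livers (0.40 to 0.52). The fetal sexes also differ in the share of reads outside genes.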

How the results depend on the processing

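Recomputed under the alternatives, 115 counts and shares stayed within 1.5 times or 1 SD and 38 moved further, and among those for a named member 1082 kept their side of the threshold and 122 lost it. Adult against fetal liver, members higher: 31 with library totals alone and 27 at a fold threshold of log2 1. Fetal liver against ES: with library totals alone 5 higher and 25 lower, with no fold threshold 29 and 37, at log2 1 2 and 5, and 17 lower by DESeq2. ES against embryos: 11 lower at log2 1 and 12 lower in male samples alone. Members called between the sexes of embryos numbered 1 by DESeq2 and 7 in 1 fit of all 64 libraries, which pools the spread over stages. ES lines gave 1 at log2 1. Fetal livers gave 77 with no fold threshold, and 0 at log2 1, in 1 fit of all libraries and with the share outside genes as a covariate. Adult livers gave 17 with no fold threshold, and 0 at log2 1, in 1 fit of all libraries, without the livers under 2000000 reads and without the 8 livers of lowest mapped share. The interaction gave 58 with no fold threshold, 0 at log2 1, and 1 each with RLE scaling, library totals alone, DESeq2, 1 fit of all libraries, without livers under 2000000 reads and without the 8 livers. The share of reads without the 10 genes with most reads was 1.29% in ES lines, 1.12% in fetal and 1.47% in adult livers, and 1.21% in ES lines for subunits and Cycs alone.

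Leaving out each ES line in turn gave 10 members higher and 10 to 14 lower in fetal liver, 29 to 32 higher and 17 to 18 lower in ES lines than in embryos, 0 to 4 called between the sexes of ES lines (0 without either female line), and a share of 1.24% to 1.25%. Replicate numbers did not pair the livers: the 24 same-numbered pairs had correlations of deviations from -0.091 to 0.044. With the replicate block, adult against fetal liver called 75 members, all shared with the 75 called without it, ES against embryos had 17 higher, and Ndufa1 in fetal liver against ES was at 0.0123, with its sign turned. The cause of these shifts was not tested. Depth limits the restricted isoforms in adult livers, where 3 reads are up to 1.91 CPM.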
